A study of Mus musculus with 24 samples.

Results

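The glucocorticoid receptor gene Nr3c1 and 6 genes that act on the receptor or on its ligand were followed through all 8 groups of a transcriptome study of wild-type mouse embryonic fibroblasts. The genes were taken by name: Nr3c1, the co-chaperones Fkbp4, Fkbp5 and Ptges3, the HSP90 chaperones Hsp90aa1 and Hsp90ab1, and the steroid-activating enzyme Hsd11b1. They are 7 of the 47480 genes in the deposited count table, and 6 of the 7 were abundant enough to be tested among 14772 genes. The weaker induction of Fkbp5 in siCop1 libraries was already known when these genes were chosen, so the terms that measure it are given as a description with no p-value.

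The 24 libraries are RNA from fibroblasts that share the wild-type genotype and differ in 3 crossed factors. Cells carried siCTRL, read here as the control small interfering RNA, or siCop1, read as one against the ubiquitin ligase subunit Cop1. They were kept in the solvent DMSO or in KL001, a carbazole compound known to stabilise cryptochrome proteins, and were left without or given Dexa, read as the synthetic glucocorticoid dexamethasone. The groups are therefore siCTRL DMSO, siCTRL DMSO Dexa, siCTRL KL001, siCTRL KL001 Dexa, siCop1 DMSO, siCop1 DMSO Dexa, siCop1 KL001 and siCop1 KL001 Dexa, with 3 libraries in each. Not given in the sources used here were doses, times, siRNA sequences and whether replicates came from separate cultures, and the p-values therefore measure only the spread between these libraries, which may be technical. Comparisons that use the same group share its 3 libraries.

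The glucocorticoid receptor is a ligand-activated transcription factor. Without hormone it sits in the cytoplasm in a complex with an HSP90 dimer and the co-chaperone p23, the product of Ptges3. FKBP51, the product of Fkbp5, holds this complex in a state of lower hormone affinity, whereas FKBP52, the product of Fkbp4, couples it to dynein and favours transport to the nucleus. Fkbp5 is itself a direct target of the receptor, which makes it part of a short negative feedback loop. Cryptochromes, the proteins that KL001 stabilises, can bind the receptor and repress its activity.

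The start regions of the co-chaperone pair with opposite roles are shown because the genes responded differently to Dexa. RefSeq entries on GRCm38.p6 were found for 4 of the 7 genes. The Fkbp5 window is chr17:28486100-28486399 and the Fkbp4 window is chr6:128438607-128438906, both on the minus strand and covering 250 bases before to 50 bases after the annotated start. The lines below read 5′ to 3′ along the gene, and capitals mark matches to the motifs described after them.
Fkbp5: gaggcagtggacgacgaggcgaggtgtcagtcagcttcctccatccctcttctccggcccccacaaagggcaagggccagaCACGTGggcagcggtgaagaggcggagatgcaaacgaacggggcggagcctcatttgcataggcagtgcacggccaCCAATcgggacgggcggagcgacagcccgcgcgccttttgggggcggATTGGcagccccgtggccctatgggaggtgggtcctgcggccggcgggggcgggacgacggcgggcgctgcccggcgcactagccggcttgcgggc
Fkbp4: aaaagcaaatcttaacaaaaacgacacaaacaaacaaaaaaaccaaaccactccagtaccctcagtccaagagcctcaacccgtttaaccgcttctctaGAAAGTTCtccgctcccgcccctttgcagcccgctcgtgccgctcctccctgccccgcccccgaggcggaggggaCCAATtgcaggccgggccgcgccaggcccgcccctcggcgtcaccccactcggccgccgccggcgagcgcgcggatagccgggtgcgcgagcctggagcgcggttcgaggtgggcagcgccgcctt

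A set of 4 motifs was searched on both strands. The TGTTCT core of the glucocorticoid response element was in neither window, nor in those of Ptges3 and Hsd11b1, while 19.0% of 32851 windows of the same length held it. The Fkbp5 window held a CACGTG E-box, the sequence that clock transcription factors can bind, starting at position -169 from the RefSeq start, and 7.15% of windows had a match. It also held CCAAT at -93 and the reverse form ATTGG at -46, a box that 37.4% of windows held. The Fkbp4 window held GAAAGTTC at -151, which fits the heat shock pattern GAANNTTC present in 7.86% of windows, and CCAAT at -76. None of these motifs overlapped another in the windows shown. The GENCODE model of Fkbp5, chr17:28399094-28517527, begins upstream of this RefSeq start, so the window covers only 1 of the annotated starts. Sequence outside the windows was not searched, so absence of the TGTTCT core here does not bear on response elements elsewhere.

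Libraries held 21409988 to 27875023 counts, and the common biological coefficient of variation was 3.71%. Levels are in CPM, read counts scaled to a common library size with TMM factors. Cop1, listed under its older symbol Rfwd2, was at 24.99 to 29.7 CPM in the 12 siCTRL libraries. It was at 4.33 to 5.79 in the 12 siCop1 libraries, so the libraries followed their siRNA labels. All 6 fibroblast markers stood above 1 CPM, and their summed level was 39700 to 50300 CPM in siCTRL and 34800 to 43200 in siCop1 libraries. The summed heart muscle markers were at 5.26 to 100 CPM in siCTRL and at 2.3 to 4.59 in siCop1, and the epithelial markers were at 2.51 to 11.5 and at 5.63 to 46.5. Summed macrophage markers were at 2.55 to 7.36 CPM in siCTRL and at 4.32 to 15.1 in siCop1. The adipocyte list was at 15.8 to 24.3 CPM without Dexa and at 52.3 to 81 with it; Fabp4 carried these sums, while Adipoq was at 0 in 19 libraries and Plin1 in 21. Neuronal and glial markers summed to 11.8 to 15.4 CPM in siCTRL and 8.03 to 11.4 in siCop1, and endothelial markers to at most 2.81. The part of these differences in the results below was not tested, and in such bulk samples fewer cells of a type and less RNA per cell cannot be told apart.

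In siCTRL DMSO libraries, Hsp90ab1 had the highest level per length of the 6 genes, at 945.0 CPM per kilobase of exon, and Fkbp4 followed at 84.9. Hsp90aa1 stood at 27.4, Ptges3 at 25.1 and Nr3c1 at 14.1 CPM per kilobase. Fkbp5 was the lowest at 3.85 in these libraries and stood at 75.9 CPM per kilobase in siCTRL DMSO Dexa. Hsd11b1 had 0 to 4 counts in each library. The levels of the 6 tested genes in each library are plotted by group.

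**Figure D1:**
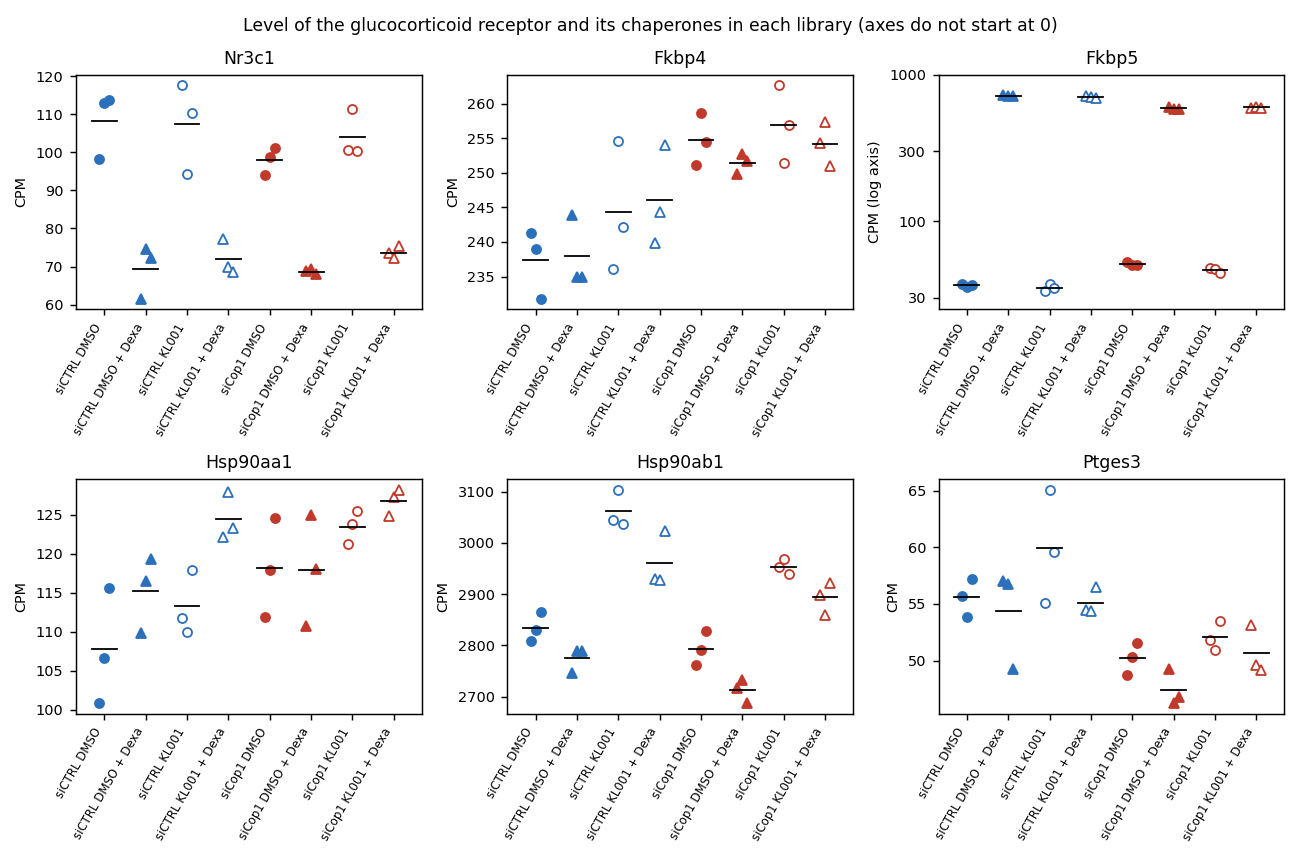
Level of each gene in CPM (TMM scale; Fkbp5 on a log axis) in the 24 libraries, grouped along the horizontal axis. Blue points are siCTRL and red points siCop1, triangles are Dexa, open symbols are KL001, and bars are group means of 3; Nr3c1 is lower and Fkbp5 higher in all 12 Dexa libraries, and Hsp90ab1 is higher with KL001 in each setting.

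Nr3c1, which lies on chromosome 18, was lower in every Dexa group. Its levels were 98.1, 113 and 113.7 CPM in siCTRL DMSO and 61.6, 74.5 and 72.3 with Dexa. In siCop1 DMSO they were 93.9, 98.7 and 101.1, and with Dexa 68.7, 69.2 and 67.9. Over all settings the 12 libraries without Dexa ranged from 93.9 to 117.6 CPM and the 12 with Dexa from 61.6 to 77.3, with no overlap.

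The fall of Nr3c1 passed the test in all 4 settings. On the log2 scale Dexa changed Nr3c1 by -0.64 (SE 0.08, adjusted p = 1.19e-06) in siCTRL DMSO, where the level fell by 35.9%. The change was -0.58 (adjusted p = 4.52e-06) in siCTRL KL001, -0.51 (adjusted p = 2.82e-05) in siCop1 DMSO and -0.50 (adjusted p = 3.54e-05) in siCop1 KL001. Adjusted p-values come, here and below, from a two-sided quasi-likelihood test in edgeR, with the Benjamini-Hochberg method over all genes tested, and a gene is said to rise, fall or change where this value is below 0.05. The fall differed between siCop1 and siCTRL by 0.13 in DMSO, with a 95% interval of -0.10 to 0.36 (adjusted p = 0.894), so a difference in either direction within that interval was not detectable.

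Neither siCop1 nor KL001 changed Nr3c1 past the threshold. Among the 4 groups without Dexa the order was siCTRL DMSO (108.3 ± 8.81 CPM, SD, n = 3), siCTRL KL001 (107.4), siCop1 KL001 (104) and siCop1 DMSO (97.9), and no neighbours in that order differed beyond their spread. The siCop1 effect in DMSO without Dexa was -0.14 (95% interval -0.30 to 0.01, adjusted p = 0.167). It passed with no filter on low counts (-0.14, adjusted p = 0.013) and when siCTRL DMSO replicate 1, the lowest of its group, was left out (-0.21, adjusted p = 0.0482).

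Fkbp5 had the largest range of the 7 genes. It was at 37.3, 35.4 and 36.5 CPM in siCTRL DMSO and at 726.9, 715 and 714.2 CPM with Dexa. In siCTRL KL001 it was at 33.4, 37.1 and 34.7 without Dexa and at 714.9, 699 and 695.3 with it. Dexa thus raised Fkbp5 19.7-fold in DMSO and 20.1-fold in KL001 by the ratio of group means. On the log2 scale the rise was 4.30 (SE 0.04, adjusted p = 2.39e-35) in DMSO and 4.33 (SE 0.04, adjusted p = 2.3e-35) in KL001. That Dexa induces Fkbp5 was known when the gene was chosen, so these p-values are a description.

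In siCop1 libraries Fkbp5 started higher and ended lower. Without Dexa it was at 52.3, 50 and 50.1 CPM in siCop1 DMSO and at 47.8, 47.3 and 44.3 in siCop1 KL001, all above the siCTRL libraries. With Dexa it was at 601.9, 584 and 583.6 CPM in siCop1 DMSO and at 595.6, 603.1 and 593.7 in siCop1 KL001, all below the siCTRL libraries. The siCop1 difference was thus 0.48 (SE 0.04) without Dexa and -0.29 (SE 0.03) with it in DMSO, and 0.41 (SE 0.04) and -0.23 (SE 0.03) in KL001.

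**Figure D2:**
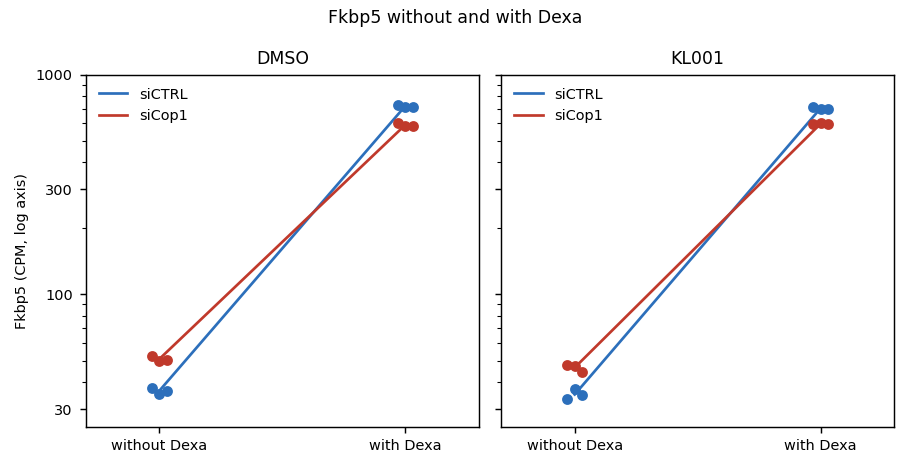
Fkbp5 in CPM (log axis) without and with Dexa, in DMSO on the left and KL001 on the right; points are the 3 libraries of a group and lines join group means. The siCop1 lines start above and end below the siCTRL lines in both panels, with Dexa raising Fkbp5 11.6-fold rather than 19.7-fold in DMSO.

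The 2 parts of this difference can be read on either scale. The Dexa increment in CPM was 682.3 (SE 4.14) in siCTRL DMSO and 539 (SE 6.08) in siCop1 DMSO, so the latter was 79.0% of the former. The ratio of group means was 11.6 in siCop1 DMSO, 58.9% of the siCTRL ratio, because the higher starting level enters the ratio as well. In KL001 the increment was 668 (SE 6.11) in siCTRL and 551 (SE 3.07) in siCop1, or 82.5%, and the ratio of 12.9 was 64.2% of that in siCTRL. As a log2 term, the Dexa response of Fkbp5 in siCop1 minus that in siCTRL was -0.76 in DMSO (95% interval -0.86 to -0.67) and -0.64 in KL001 (-0.74 to -0.54). Over the alternative settings tried these terms stayed between -0.79 and -0.74 and between -0.68 and -0.61.

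KL001 had little measured effect on Fkbp5. For siCTRL its log2 effect was -0.06 (95% interval -0.14 to 0.02) before and -0.03 (-0.09 to 0.03) after Dexa. For siCop1 without Dexa it was -0.13 (SE 0.04, adjusted p = 0.0403), with the 3 KL001 libraries below the 3 DMSO libraries. That call was lost with no filter on low counts (adjusted p = 0.124), when only these 2 groups were fitted (0.0578), and with any of 5 libraries left out: siCop1 DMSO replicate 1 (0.221), replicate 2 (0.07), replicate 3 (0.0713), siCop1 KL001 replicate 2 (0.0655) and replicate 3 (0.258). The KL001 by Dexa term in siCop1 was 0.15 (unadjusted p = 0.00399, adjusted p = 0.682).

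Fkbp4, at chr6:128429735-128438677 on the minus strand, showed no response to Dexa of the size seen for its relative. It was at 241.3, 239 and 231.8 CPM in siCTRL DMSO and at 243.9, 235 and 235 CPM with Dexa, and these ranges overlapped. The Dexa effect was between -0.02 and 0.01 on the log2 scale in the 4 settings, and the widest 95% interval bounds were -0.08 and 0.07. The ratio of Fkbp5 to Fkbp4 per length therefore moved with Fkbp5, from 0.0453 ± 0.0014 in siCTRL DMSO to 0.892 ± 0.010 with Dexa (SD, n = 3). In siCop1 DMSO it moved from 0.0589 ± 0.0023 to 0.693 ± 0.016. The size of these ratios depends on the merged exon lengths used, 9468 bases for Fkbp5 and 2795 for Fkbp4. Without division by length, Fkbp5 was at 718.7 CPM and Fkbp4 at 238 CPM in siCTRL DMSO Dexa.

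The 4 siCop1 groups held the 4 highest mean levels of Fkbp4. The 12 siCop1 libraries lay between 249.8 and 262.7 CPM and the 12 siCTRL libraries between 231.8 and 254.6, so the ranges overlapped, and the highest siCTRL library stood above the siCop1 median of 253.5. In DMSO without Dexa the siCop1 libraries at 251.1, 258.7 and 254.5 CPM were all above the siCTRL libraries, a rise of 0.10 (SE 0.03, adjusted p = 0.0108) or 7.32%. This call ended when siCTRL DMSO replicate 3 (adjusted p = 0.0658) was left out, and likewise for siCop1 DMSO replicate 2 (0.0548).

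With Dexa in DMSO the rise of Fkbp4 was 0.08 (adjusted p = 0.0475). It was lost with no filter on low counts (adjusted p = 0.215), when only the 2 groups were fitted (0.0811), and with the omission of siCTRL DMSO Dexa replicate 2 (0.134), replicate 3 (0.138), siCop1 DMSO Dexa replicate 1 (0.101), replicate 2 (0.112) or replicate 3 (0.101). In KL001 the effect was 0.07 without Dexa (adjusted p = 0.0643) and 0.05 with it (adjusted p = 0.268). The former passed under RLE scaling (adjusted p = 0.0345), in DESeq2 (0.0258) and without siCTRL KL001 replicate 2 (0.0116).

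Hsp90ab1, the constitutive cytosolic HSP90 at chr17:45567775-45573271 on the minus strand, was higher in KL001. It was at 2809, 2830 and 2865 CPM in siCTRL DMSO and at 3045, 3104 and 3037 CPM in siCTRL KL001. In siCop1 it was at 2761, 2792 and 2828 CPM in DMSO and at 2953, 2969 and 2939 in KL001. In each of the 4 settings all 3 KL001 libraries were above the 3 DMSO libraries, and over all settings DMSO ended at 2865 CPM and KL001 began at 2860.

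KL001 raised Hsp90ab1 by 0.11 (SE 0.02, adjusted p = 0.000821) in siCTRL and by 0.09 (adjusted p = 0.00342) in siCTRL with Dexa. In siCop1 the rise was 0.08 (adjusted p = 0.0201) without and 0.09 (adjusted p = 0.00477) with Dexa, so the size was 5.74% to 8.02% throughout. Fitted on only the groups compared, the calls in siCTRL were lost (adjusted p = 0.182 without and 0.051 with Dexa). With no filter on low counts those in siCop1 were lost (0.148 and 0.0647). The call in siCop1 without Dexa was also lost on omitting siCop1 DMSO replicate 1 (0.12), replicate 2 (0.0748), siCop1 KL001 replicate 1 (0.064), replicate 2 (0.0969) or replicate 3 (0.0526). The estimates in these fits were between 0.07 and 0.11. The summed fibroblast markers were 34800 to 44400 CPM with KL001 and 39700 to 50300 without it, and their part in the result was not tested.

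The estimated Dexa changes of Hsp90ab1 were small and all negative. With Dexa the gene was at 2747, 2790 and 2789 CPM in siCTRL DMSO, below all 3 libraries without Dexa. The change was -0.03 in siCTRL DMSO (95% interval -0.07 to 0.01), -0.05 in siCTRL KL001, -0.04 in siCop1 DMSO and -0.03 in siCop1 KL001, and none passed (adjusted p = 0.322, 0.0864, 0.157 and 0.362). In DESeq2 the change passed in siCTRL KL001 (adjusted p = 0.0408) and in siCop1 DMSO (0.0324), and in edgeR it passed in siCTRL KL001 without siCTRL KL001 Dexa replicate 3 (0.0405).

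Hsp90aa1, the inducible cytosolic HSP90 at chr12:110690605-110702728 on the minus strand, was lower and more variable than its paralogue. It was at 100.9, 106.7 and 115.6 CPM in siCTRL DMSO and at 111.9, 117.9 and 124.5 in siCop1 DMSO, with overlapping ranges. Per length, Hsp90ab1 exceeded it 34.6 ± 2.0-fold in siCTRL DMSO and 29.9 ± 0.50-fold in siCop1 KL001 Dexa (SD, n = 3), the latter the lowest group mean. The counting of reads shared between these similar genes is not stated in the labels, which leaves their counts uncertain.

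siCop1 raised Hsp90aa1 without Dexa, by 0.13 (SE 0.05, adjusted p = 0.0317) in DMSO and 0.12 (SE 0.05, adjusted p = 0.0399) in KL001. With Dexa the siCop1 effect was 0.03 in both compounds and did not pass. Each call was close to the threshold and was lost on omitting any of several libraries. In DMSO it was lost on omitting siCTRL DMSO replicate 1 (0.09, adjusted p = 0.213, over 1.5 times smaller), replicate 2 (0.0845), siCop1 DMSO replicate 2 (0.0699) or replicate 3 (0.197). In KL001 it was lost on omitting siCTRL KL001 replicate 1 (0.0962), replicate 2 (0.134), siCop1 KL001 replicate 1 (0.052), replicate 2 (0.0881) or replicate 3 (0.113).

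Dexa raised Hsp90aa1 in siCTRL KL001, from 111.8, 110 and 117.9 CPM to 122.1, 127.9 and 123.3 CPM. The change was 0.14 (SE 0.05, adjusted p = 0.0296), and the call was lost on omitting siCTRL KL001 replicate 1 (0.0797), replicate 2 (0.105), siCTRL KL001 Dexa replicate 2 (0.124) or replicate 3 (0.0532). In siCTRL DMSO the Dexa effect was 0.10 (adjusted p = 0.135) and passed without siCTRL DMSO replicate 3 (0.15, adjusted p = 0.0234). In siCop1 DMSO it was 0.00 (95% interval -0.10 to 0.09). The siCop1 by Dexa difference was -0.10 in both compounds (adjusted p = 0.83 in DMSO and 0.835 in KL001), so a dependence on siCop1 was not shown.

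**Figure D3:**
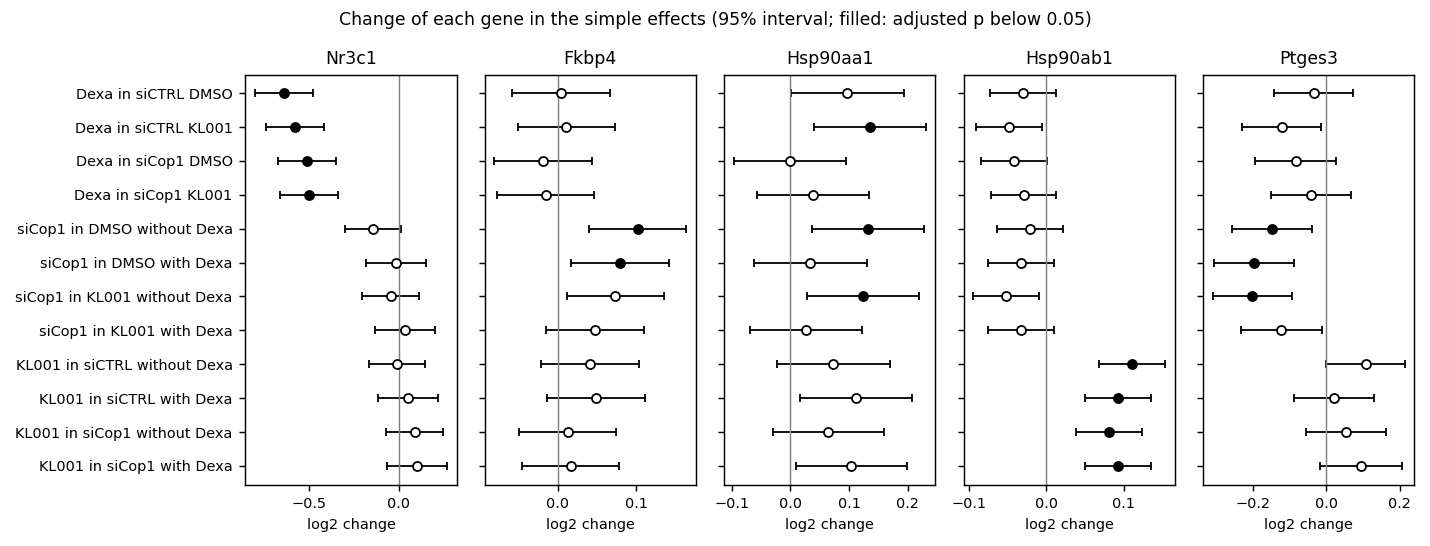
Log2 change of Nr3c1, Fkbp4, Hsp90aa1, Hsp90ab1 and Ptges3 in the 12 single-factor comparisons (rows), with 95% intervals; filled points passed the test and each panel has its own horizontal scale. Filled points fall in the Dexa rows for Nr3c1, in the KL001 rows for Hsp90ab1 and in siCop1 rows for Fkbp4 (2 rows) and Ptges3 (3 rows). Hsp90aa1 has filled points for Dexa in siCTRL KL001 and for siCop1 without Dexa in DMSO and in KL001.

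Ptges3, at chr10:128058954-128077272 on the plus strand, fell in siCop1 libraries. It was at 55.7, 53.8 and 57.2 CPM in siCTRL DMSO and at 48.7, 50.3 and 51.6 in siCop1 DMSO. In KL001 it was at 55.1, 65.1 and 59.6 CPM in siCTRL and at 51.9, 51 and 53.5 in siCop1. In each of the 4 settings all 3 siCop1 libraries were below the 3 siCTRL libraries.

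The siCop1 effect on Ptges3 was -0.15 (SE 0.05, adjusted p = 0.0344) in DMSO, -0.20 (adjusted p = 0.00547) in DMSO with Dexa and -0.20 (adjusted p = 0.00345) in KL001. In KL001 with Dexa it was -0.12 (adjusted p = 0.0891), and it passed there when only these groups were fitted (adjusted p = 0.0237). The call in DMSO without Dexa was lost in DESeq2 (adjusted p = 0.0635) and on omitting siCTRL DMSO replicate 1 (0.0722), replicate 3 (0.123), siCop1 DMSO replicate 1 (0.133) or replicate 2 (0.0728). A processed pseudogene of this gene, Ptges3-ps on chromosome 6, is annotated, and reads shared with it make the Ptges3 counts uncertain.

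Dexa changed Ptges3 in none of the 4 settings. Its effect ran from -0.12 (adjusted p = 0.094) in siCTRL KL001 to -0.03 (adjusted p = 0.702) in siCTRL DMSO. The former passed without siCTRL KL001 replicate 1, the lowest of its group (-0.18, adjusted p = 0.0121). The KL001 effect ran from 0.02 to 0.11 with a lowest adjusted p of 0.257.

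Hsd11b1, at chr1:193221634-193264075, encodes the enzyme that regenerates active glucocorticoid from its inert keto form. It had 1, 1 and 1 counts in siCTRL DMSO, 2, 1 and 0 with Dexa, 0, 0 and 1 in siCop1 DMSO and 0, 3 and 1 in siCop1 DMSO Dexa. In KL001 it had 4, 2 and 2 counts in siCTRL, 2, 1 and 0 in siCTRL with Dexa, 1, 0 and 1 in siCop1 and 0, 2 and 2 in siCop1 with Dexa. The highest level was 0.155 CPM, no comparison was made, and differences were not detectable at this depth.

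Other genes of steroid metabolism were expressed, with 6 of 9 listed genes tested. Hsd11b2, whose enzyme inactivates glucocorticoids, rose with Dexa in siCTRL DMSO from 2.76 to 10.1 CPM, a change of 1.87 (SE 0.13, adjusted p = 5.46e-13). It was also higher in siCop1 DMSO without Dexa by 0.77 (SE 0.14, adjusted p = 9.4e-05). H6pd, which supplies the cofactor for the Hsd11b1 enzyme, rose with Dexa from 88.5 to 125.3 CPM, by 0.50 (SE 0.03, adjusted p = 3.83e-14), and 2 of the 6 passed in that comparison (33.3% beside 26.8% of all genes). siCop1 raised 4 of the 6 in DMSO without Dexa (66.7% beside 29.4% of all genes), among them Akr1c18, a hydroxysteroid dehydrogenase gene, from 0.116 to 2.63 CPM. Its change of 4.49 (SE 0.70, adjusted p = 4.5e-05) did not pass when only the 2 groups were fitted (adjusted p = 0.0589), and rests on 9 counts over the 3 siCTRL libraries. The siCop1 DMSO libraries ranged from 1.19 to 5.21 CPM for Akr1c18, and the change was 3.51 without replicate 2 of that group and 5.50 without siCTRL DMSO replicate 3. KL001 changed 0 of the 6 in siCTRL without Dexa, beside 6.73% of all genes.

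The counts of changed genes among the 6 tested were read against the share of all genes called. Dexa changed 2 of 6 in siCTRL DMSO, where 26.8% of all genes were called, 3 of 6 in siCTRL KL001 (26.8%), 2 of 6 in siCop1 DMSO (23.7%) and 2 of 6 in siCop1 KL001 (24.5%). siCop1 changed 4 of 6 in DMSO (29.4%), 3 of 6 in DMSO with Dexa (31.1%), 3 of 6 in KL001 (32.7%) and 1 of 6 in KL001 with Dexa (30.1%). Fkbp5, whose induction by Dexa and siCop1 pattern were known beforehand, is in each of these Dexa and siCop1 counts. KL001 changed 1 of 6 in siCTRL (6.73%), 1 of 6 in siCTRL with Dexa (10.6%), 2 of 6 in siCop1 (4.09%) and 1 of 6 in siCop1 with Dexa (5.46%). With so few genes, these shares are not a result about the set.

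Differences between effects were tested as interaction terms. For siCop1 by Dexa, 0 of the 5 genes other than Fkbp5 passed in DMSO, where 0.67% of all genes were called, and 0 of 5 in KL001 (0.562%). None of the 6 passed for KL001 by Dexa in siCTRL (0% of all genes called) or in siCop1 (0.0677%), nor for siCop1 by KL001 without (0%) or with Dexa (0.0677%). Leaving out Fkbp5 in the siCop1 by Dexa terms, 1 member had an unadjusted p below 0.05 in these 6 terms. It was Fkbp5 for KL001 by Dexa in siCop1. With the same terms of Fkbp5 left out, DESeq2 called 0 members. Where edgeR called 0 of all genes, 888 genes for KL001 by Dexa in siCTRL and 982 for siCop1 by KL001 without Dexa had an unadjusted p below 0.05, and DESeq2 called 3 and 15.

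Averaging each factor over the 4 combinations of the other factors, a contrast chosen after the data were seen, narrowed the errors for the 5 tested genes other than Fkbp5. Fkbp5, with siCop1 effects in opposite directions without and with Dexa, was left out. The averaged Dexa effect was -0.56 for Nr3c1, 0.07 for Hsp90aa1 (adjusted p = 0.0177), -0.04 for Hsp90ab1 (0.00338) and -0.07 for Ptges3 (0.0322), so 4 of 5 passed where 47.1% of all genes did. The averaged siCop1 effect was 0.08 for Fkbp4 (adjusted p = 0.000107), 0.08 for Hsp90aa1 (0.00468), -0.03 for Hsp90ab1 (0.00582) and -0.17 for Ptges3 (4.06e-06), again 4 of 5 beside 55.7% of all genes. The averaged KL001 effect was 0.09 for both Hsp90aa1 (adjusted p = 0.00546) and Hsp90ab1 (4.59e-08), which made 2 of 5 beside 24.1% of all genes. Apart from Nr3c1 with Dexa and Ptges3 with siCop1, each averaged effect was below 7% in size.

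Of 22 tested HSP90 paralogues and co-chaperones, Dexa in siCTRL DMSO raised 5 and lowered 0, so 22.7% were called beside 26.8% of all genes, with a median log2 change of 0.04 beside -0.01 over all genes. They included Hspa8, the constitutive HSP70, which went from 38.4 to 48.4 CPM (0.34, adjusted p = 0.00531), and Ppp5c, a phosphatase that binds HSP90 (0.19, adjusted p = 0.000767). The low level of Hspa8, a gene with many processed copies, leaves its counts uncertain. In siCTRL KL001 Dexa raised 3 of the 22 and lowered 3 (27.3% beside 26.8% of all genes). In siCop1 it raised 1 and lowered 2 in DMSO (13.6% beside 23.7%) and raised 2 and lowered 0 in KL001 (9.09% beside 24.5%). Among 14 tested heat shock factors and targets 4 rose and 0 fell with Dexa in siCTRL DMSO (28.6% beside 26.8% of all genes). Of these, Hsph1, an HSP70 exchange factor, went from 202.5 to 245.5 CPM (0.28, adjusted p = 8.71e-09). In siCTRL KL001 Dexa raised 3 of the 14 and lowered 2 (35.7%). It raised 2 in siCop1 DMSO (14.3%) and 3 in siCop1 KL001 (21.4%), and lowered 0 in both.

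In siCop1 DMSO without Dexa, 2 of the 22 rose and 5 fell, which made 31.8% beside 29.4% of all genes, with a median of -0.01, as over all genes. Unc45a, a myosin and receptor co-chaperone, went from 78.9 to 68.3 CPM and fell by 0.21 on the log2 scale (adjusted p = 1.73e-04). The 2 that rose, Hspa4 (0.08, adjusted p = 0.017) and Dnaja1 (0.10, adjusted p = 0.0456), lost their calls with no filter on low counts (0.0741 and 0.103). The Hspa4 call also ended on omitting siCTRL DMSO replicate 1 (0.0892), replicate 2 (0.0529) or siCop1 DMSO replicate 2 (0.0711), and the Dnaja1 call on omitting any of these 6 libraries but siCTRL DMSO replicate 1 (0.0754 to 0.164). Of the 14 heat shock genes 1 rose and 2 fell (21.4%). The 1 that rose was again Dnaja1, which like Hspa8, Dnajb1, Chordc1 and Ahsa1 is in both lists. Hsph1 fell (-0.08, adjusted p = 0.0377), a call lost under RLE scaling (0.0758), with no filter (0.244) and in DESeq2 (0.0691). It was also lost when only those groups were fitted (0.0929) and on omitting any of these 6 libraries but siCop1 DMSO replicate 2 (0.0562 to 0.139). Cryab, a small heat shock protein, was at 142.8 CPM in siCTRL and 98.1 in siCop1 (-0.54, adjusted p = 5.79e-11). The summed heart muscle markers also differed between these groups, 22.8 to 67.3 CPM against 2.42 to 4.59, and their part in the Cryab result was not tested. KL001 in siCTRL without Dexa raised 1 of the 22 (4.55% beside 6.73% of all genes), Ahsa1, an activator of the HSP90 ATPase, by 0.14 (adjusted p = 0.034). That call was lost when only those groups were fitted (adjusted p = 0.282) and on omitting siCTRL DMSO replicate 1 (0.112), replicate 3 (0.13), siCTRL KL001 replicate 2 (0.185) or replicate 3 (0.0595).

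Of 12 tested other FKBP genes, Dexa in siCTRL DMSO raised 3 and lowered 0 (25% beside 26.8% of all genes), none by a size near that of Fkbp5. Fkbp14, a prolyl isomerase of the endoplasmic reticulum, rose from 76.6 to 90.8 CPM (0.25, adjusted p = 2.33e-05), and the highest of the 12 changes was 0.25. siCop1 in DMSO without Dexa raised Fkbp3, a nuclear family member, by 0.27 (adjusted p = 3.04e-06) and lowered 4, among them Fkbp10, a collagen chaperone, from 515.6 to 446.4 CPM (-0.21, adjusted p = 1.02e-06). These were 5 of 12, or 41.7% beside 29.4% of all genes. KL001 in siCTRL without Dexa lowered 2 of the 12 (16.7% beside 6.73% of all genes), Fkbp14 by 0.22 on the log2 scale (adjusted p = 0.00131) and Fkbp10 by 0.12 (adjusted p = 0.00694), and both calls were lost when only those groups were fitted (0.0609 and 0.211).

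Among other steroid receptors, 3 of 5 were tested, and Esr1, the oestrogen receptor alpha gene, fell with Dexa from 7.22 to 4.89 CPM (-0.56, adjusted p = 6.44e-05). The other 2 tested receptors did not pass in that comparison, so 33.3% were called beside 26.8% of all genes. Without Dexa, siCop1 in DMSO and KL001 in siCTRL changed none of the 3, beside 29.4% and 6.73% of all genes. Of 16 receptor coregulators, Dexa in siCTRL DMSO raised 2 and lowered 1 (18.8% beside 26.8% of all genes), and those that rose were the cryptochrome genes Cry1 (0.56, adjusted p = 8.66e-10) and Cry2 (0.27, adjusted p = 1.74e-05). KL001 lowered 2 of the 16 in siCTRL without Dexa (12.5% beside 6.73% of all genes), Cry1 from 22.8 to 5.81 CPM (-1.97, adjusted p = 5.6e-18) and Cry2 from 40.6 to 28.8 CPM (-0.49, adjusted p = 2.31e-08). In DMSO without Dexa siCop1 changed 25% of the 16 beside 29.4% of all genes: it raised 2, including the deacetylase gene Hdac3 (0.12, adjusted p = 0.00164), and lowered 2, including the Mediator gene Med14 (-0.25, adjusted p = 0.00804). Of 7 receptor transport genes, Dexa in siCTRL DMSO lowered 1 (14.3% beside 26.8% of all genes), the importin gene Kpnb1 (-0.12, adjusted p = 0.00671). The Kpnb1 call was lost when only those groups were fitted (0.0869) and on omitting siCTRL DMSO replicate 3 (0.0626) or siCTRL DMSO Dexa replicate 1 (-0.08, 0.0877).

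Fkbp5 was set beside 15 other genes known to be induced by glucocorticoids. The list was chosen with earlier results of these data known, so its shares of called genes are a description. All 15 rose with Dexa in siCTRL DMSO, with a median log2 change of 2.37, and all 15 rose in siCop1 DMSO, with a median of 2.22, beside 26.8% and 23.7% of all genes called in either direction. Among Dexa libraries, siCop1 lowered 10 of the 15 and raised 0 in DMSO (66.7% beside 31.1% of all genes; median -0.18) and lowered 7 and raised 0 in KL001 (46.7% beside 30.1%; median -0.10), so a lower level with Dexa was not limited to Fkbp5. Fam107a went from 0.253 to 27.0 CPM in siCTRL DMSO (6.70, adjusted p = 4.92e-24; 7.37 without siCTRL DMSO replicate 1), and the transcription factor gene Zbtb16 from 3.59 to 62.1 CPM (4.11, adjusted p = 5.01e-24).

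The siCop1 by Dexa term in DMSO passed for 3 of the 15, each with a smaller log2 Dexa response in siCop1. Of all genes, 0.67% were called. As the list was chosen with earlier results known, the share of 3 of the 15 is not a result about glucocorticoid-induced genes. The term was -0.88 (SE 0.06, adjusted p = 2.28e-11) for Errfi1, an inhibitor of the EGF receptor, and -0.58 (SE 0.08, adjusted p = 1.62e-04) for Glul, the glutamine synthetase gene. The other was Ddit4, an inhibitor of mTORC1, at -0.26 (adjusted p = 0.0316), for which no alternative was run. In KL001 the term was -0.79 (adjusted p = 7.53e-10) for Errfi1, -0.71 (adjusted p = 8.24e-06) for Glul and -0.09 (adjusted p = 0.826) for Ddit4, so 2 of the 15 passed.

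Errfi1 and Glul also shared the higher start seen for Fkbp5. They were the 2 of the 15 that siCop1 raised in DMSO without Dexa, while 4 fell (40% beside 29.4% of all genes, median -0.06). In KL001 without Dexa 2 rose and 2 fell (26.7% beside 32.7%). Errfi1 was at 28.2 CPM in siCTRL DMSO and at 51.2 in siCop1 DMSO (0.86, adjusted p = 4.33e-15), and with Dexa at 246.8 and 243.8. Glul was at 11.2 and 14.98 CPM without Dexa (0.42, adjusted p = 1.8e-05) and at 57.8 and 51.8 with it. Per1, a clock gene, and Tsc22d3, which encodes GILZ, gave siCop1 by Dexa terms in DMSO of 0.00 (adjusted p = 0.997) and 0.11 (adjusted p = 0.439). The term thus did not pass for 12 of the 15, and its median over the list was -0.05 beside 0.01 over all genes.

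**Figure D4:**
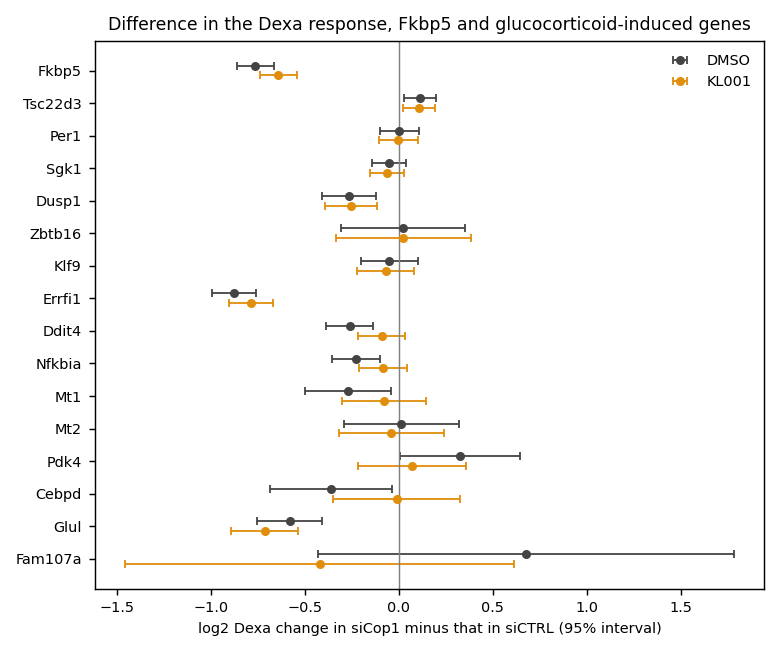
Dexa response in siCop1 minus that in siCTRL on the log2 scale, with 95% intervals, for Fkbp5 and 15 glucocorticoid-induced genes (rows), in DMSO (grey) and KL001 (orange). Fkbp5 at -0.76 lies with Errfi1 at -0.88 and Glul at -0.58 to the left of 0, and Fam107a has the widest interval.

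The genes whose log2 levels across the 24 libraries were most like each member were listed by Pearson correlation among 11602 genes with a mean of at least 1 CPM. These correlations rest on the same libraries and groups and are a description. Fkbp5 was most like Figf (r = 0.997), which encodes the growth factor VEGF-D, and Dact1 and Pdp1 (both 0.996). Nr3c1 was most like the adhesion receptor gene Adgrg6 (0.983), followed by Flrt1 and Adgrl2, and its own correlation with Fkbp5 was -0.953. The likeness was weaker for the genes with small ranges: Hsd17b10 for Fkbp4 (0.919), Me1 for Hsp90ab1 (0.897), Pgrmc2 for Ptges3 (0.896) and Nol8 for Hsp90aa1 (0.877), with Hspa4, an HSP70 family member, next for Hsp90aa1 (0.849).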

How the data were processed

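RNA of 24 libraries was measured by mRNA sequencing. Per the labels' protocols, stranded libraries were made from total RNA and sequenced as single reads. Per the submitters' processing notes, bcl2fastq 1.8.4, STAR 2.4.5a, featureCounts from Subread 1.4.6-p3, Picard 1.126 and DESeq2 were used with GRCm38 (mm10); not given in the sources used here were the annotation and how multi-mapping reads were treated. The authors deposited raw read counts per gene symbol, which were tested here. The authors also deposited normalized values (unit: signal), equal to the raw counts divided by 1 size factor per library in 100% of values within 0.011, and used only for that check. Library totals were 21409988 to 27875023 counts, so a level of 1 CPM stands for 21.5 to 27.7 counts; PCR copies were not told apart.

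Genes passing filterByExpr (minimum count 10, minimum total 15) were scaled by TMM and fitted in edgeR 4.0.16 (R 4.3.3; robust quasi-likelihood, 24 libraries, 1 mean per group, no covariate). There were 12 single-factor comparisons and 6 interactions, with Benjamini-Hochberg adjustment over 14772 genes. Standard errors are the unshrunken log2 fold change over the square root of its F statistic, and SDs are over 3 libraries. Lengths are merged exons of GENCODE vM21. The procedure was tested on simulated data. All 7 members were named, and of each other list up to 2 changed genes of each sign with the largest change in siCTRL DMSO against Dexa, siCop1 or KL001 and in the siCop1 by Dexa term in DMSO; genes named beyond that rule (Ddit4, Per1, Tsc22d3) were chosen after their values were seen. Some genes that the rule names are not reported here. Members and lists were chosen with earlier results of these data known. Alternatives were RLE scaling, no filter, DESeq2 1.42.0, a replicate block, fitting only the compared groups, and leaving out each library. Same-numbered libraries deviated together (every correlation over 0.1) in 3 of 28 pairs of groups, all among siCTRL DMSO Dexa, siCTRL KL001 and siCTRL KL001 Dexa. The labels name no shared culture or day. The column names carry a prefix shared by all treatments of the same siRNA and replicate number, and its meaning is not given. The replicate block joined libraries by number across both siRNAs.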

Additional observations from a re-analysis of the deposited data

Results flagged for a closer look

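The siCop1 effect on Fkbp5 had opposite directions without and with Dexa: all 3 siCop1 libraries were above all 3 siCTRL libraries without Dexa and below them with Dexa, in DMSO and in KL001 alike. The difference between these effects was -0.7645 on the log2 scale in DMSO and -0.6414 in KL001. It was not tested, because this pattern was known when the gene was chosen.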

How the results depend on the processing

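Counts below are of the 6 tested members. In a fit on only the groups compared, the count changed moved from 1 to 2 for siCop1 in KL001 with Dexa, from 1 to 0 for KL001 in siCTRL without and with Dexa, and from 2 to 1 for KL001 in siCop1 without Dexa. With no filter on low counts it moved from 2 to 0 for KL001 in siCop1 without Dexa and from 1 to 0 with Dexa. With 1 library left out it ranged from 1 to 3 (4 with all) for siCop1 in DMSO without Dexa and from 0 to 1 for KL001 in siCop1 without Dexa. The value of 1 came without siCop1 DMSO replicate 2 and 2 without siCTRL DMSO replicate 3. RLE scaling and DESeq2 moved no member count by over 1.5 times. The averaged contrast gave 0.07 (0.06749) for Hsp90aa1 with Dexa where siCop1 DMSO alone gave 0.00; it averages over settings. For the other changes the cause was not tested. Fkbp5 and Nr3c1 kept their Dexa calls in all alternatives run.

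With the replicate block, no count of changed members moved by over 1.5 times, and Fkbp4 for siCop1 in DMSO with Dexa lost its call (adjusted p = 0.0557), as did Dnaja1 for siCop1 in DMSO without Dexa (0.0532). Of 84 correlations of deviations of same-numbered libraries, between -0.29 and 0.464, 19 were over 0.1, and 13 of 24 libraries were closest to their own number. In 3 of 28 pairs of groups all 3 were over 0.1, between 0.109 and 0.464; these include the comparisons of Dexa in siCTRL KL001 and of KL001 in siCTRL with Dexa, in which the block changed no member's call. Over all genes, a fit on the groups compared moved the count called for KL001 in siCTRL without Dexa from 994 to 225, in siCop1 without Dexa from 604 to 933 and with Dexa from 807 to 1426. With no filter the siCop1 by Dexa count moved from 99 to 230 in DMSO and from 83 to 156 in KL001, where the fit on the groups compared gave 52. For KL001 by Dexa no filter gave 133 in siCTRL (0 with the filter) and 43 in siCop1 (10 with the filter), and for siCop1 by KL001 61 without Dexa (0 with the filter) and 59 with Dexa (10 with the filter). The block gave 5 genes for KL001 by Dexa in siCop1 and 5 for siCop1 by KL001 with Dexa; for the former, RLE scaling gave 5 and the fit on the groups compared 23. DESeq2 gave 3 for KL001 by Dexa in siCTRL, and 15 and 24 for siCop1 by KL001 without and with Dexa. With 1 library left out, the KL001 count in siCTRL without Dexa moved from 994 to 657 (siCTRL DMSO replicate 3), and with Dexa from 1560 to 941 (siCTRL DMSO Dexa replicate 1) and 978 (siCTRL KL001 Dexa replicate 3). In siCop1 with Dexa it moved from 807 to 509 (siCop1 DMSO Dexa replicate 1) and 504 (siCop1 KL001 Dexa replicate 3). The siCop1 by Dexa count in KL001 moved from 83 to 51 (siCTRL KL001 Dexa replicate 3), 54 (siCop1 KL001 replicate 3) and 43 (siCop1 KL001 Dexa replicate 2). The counts of 10 and 0 for the other interactions moved to between 1 and 5 in the omissions that shifted them.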
